A study of Xenopus laevis with 6 samples.

Results

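The genes described here are cell cycle and DNA replication genes in the hind limb bud of Xenopus laevis, the African clawed frog. They were chosen by gene symbol, with a name pattern that covers the Mcm helicase, Orc and GINS subunits, cyclins, cell cycle kinases and phosphatases, E2f and Myc factors, kinetochore and mitotic motor genes, and the Cdkn, Gadd45 and Btg inhibitors. The pattern found 52 gene copies among the 51061 gene IDs counted. These copies carry 41 symbols, with 32 copies on the L subgenome and 20 on the S subgenome of this allotetraploid frog, and 11 symbols have both copies.

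The limb buds came from untreated wild type tadpoles at stage 51 and were divided into a proximal, a medial and a distal segment, proximal lying nearest the body wall and distal at the tip. Each segment is represented by 2 biological replicate pools (pool 1 and pool 2), each made of RNA from 30 hind limbs, and 1 ug of total RNA went into each library. All groups share stage, strain and tissue and differ in segment alone. Each pool is a whole tissue segment with all its cell types, so fewer cells of a type and less RNA per cell cannot be told apart in any value below. Because 2 pools per segment were measured, the error of a mean level is given as the SD of 2 values (n = 2). The SE beside a log2 fold change comes from the fit over all 6 libraries. P-values measure only the spread between pools of a segment.

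A dividing cell first licenses its origins of replication: the origin recognition complex and Cdc6 load the ring-shaped Mcm2-7 helicase, which Cdc45 and the GINS complex then turn into the active replication fork helicase. Entry into S phase is driven by D-type cyclins with Cdk4 and Cdk6 and by cyclin E with Cdk2, acting through the E2f transcription factors, whose targets include most replication genes. Mitosis depends on cyclin B with Cdk1, the Aurora and Polo kinases and the kinetochore, while Ink4-type Cdkn proteins, Btg and Gadd45 proteins restrain proliferation. In limb buds of chick and mouse, outgrowth at the tip relies on proliferating mesenchyme beneath the distal ectodermal ridge.

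The choice of members limits what their counts can show. Gene names come only from the authors' deposited table of differentially expressed genes, so all of the 52 copies had passed the authors' own test between some pair of segments. A count of called members is therefore a description, and it is set beside the share called among all genes tested and among all genes named in that table. A RefSeq gene table (Xenopus_laevis_v10.1) lists 147 copies whose symbols match the same pattern, of which 35.4% are named here. For comparison, 25.6% of the 27007 genes tested and 13.6% of all 51061 gene IDs carry a name. The RefSeq copies were not filtered on counts, whereas the genes tested were. The share differed by role: 15 of 28 RefSeq copies of licensing and helicase genes and 3 of 4 of the clamp and nucleotide supply genes are members, against 6 of 35 copies of mitotic machinery genes and 3 of 22 of the G2 and mitotic cyclins and kinases. Copies with no name in the deposited table, which include every copy of mki67, cdk1, ccnb1, plk1 and aurka, were not analysed here.

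The libraries held 10815041 to 35479915 assigned fragments, with proximal pool 1 the shallowest and proximal pool 2 the deepest, and 3 counts corresponded to between 0.084 and 0.283 CPM (counts per 1000000 assigned fragments, scaled with TMM factors). Such floors cover counting error only. All 52 members passed the filter on low counts. Together they took 0.253% and 0.273% of assigned fragments in the proximal pools, 0.275% and 0.305% in the medial pools and 0.363% and 0.358% in the distal pools.

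Most members were highest at the limb tip. Mean levels rose in the order proximal, medial, distal for 34 of the 52 copies (65.4%), an order found for 23.4% of all genes tested and 29% of all named genes. Both distal pools lay above all 4 other libraries for 35 members (25.4% of all genes tested do so) and below all 4 for 11 members (23.5% of all genes tested). At an adjusted p-value under 0.05 (quasi-likelihood test of edgeR, Benjamini-Hochberg adjustment over all 27007 genes), 36 members (69.2%) were higher and 9 (17.3%) lower in distal than in proximal. Of all genes tested, 13.6% were higher and 15.9% lower in that comparison, and of all named genes 39.3% were higher and 49% lower. The median log2 fold change of the members was 0.58, against −0.0033 over all genes tested and −0.36 over the named genes.

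Most of the changes called between distal and proximal were less than 2-fold. There, 4 members were called at least 2-fold higher in distal and 4 at least 2-fold lower. The share of all genes called at that size was not counted, so these numbers have no background to be set beside. Without distal pool 1, fewer members were called higher, and fewer of all genes tested were too. The median log2 fold change of the members stayed between 0.56 and 0.60 with any library left out.

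**Figure D1:**
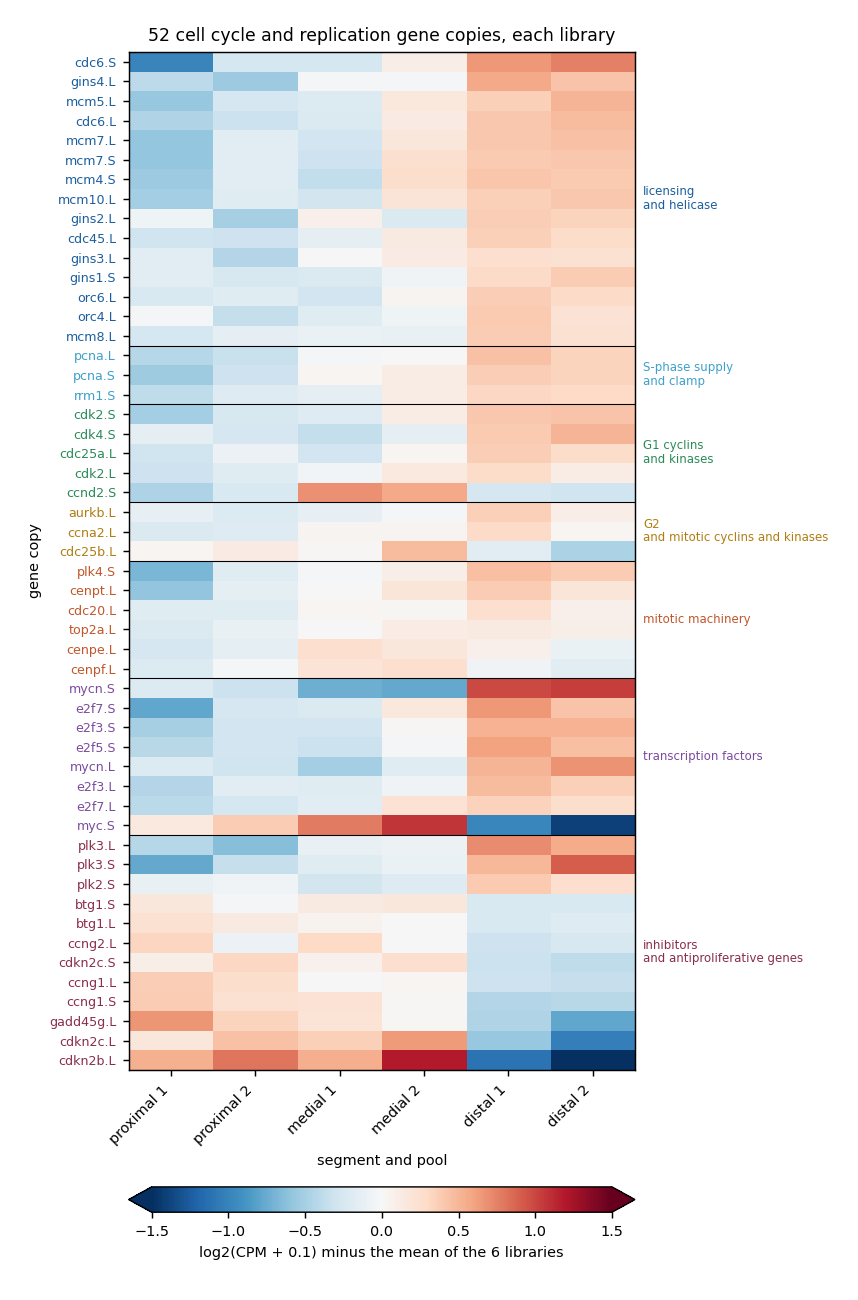
Level of each of the 52 members in each of the 6 libraries, as log2(CPM + 0.1) minus the mean of the 6 libraries for that gene copy; rows are grouped by role and columns are segments and pools. The 15 licensing and helicase copies are at their highest in both distal pools, whereas 9 of the 12 copies in the inhibitor group, and myc.S among the transcription factors, are at their lowest there. Colours are clipped at the ends of the scale, which cdkn2b.L exceeds.

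Licensing and helicase genes were the largest group. Of 15 copies, 14 were called higher in distal than in proximal, where 39.3% of all named genes were higher. Their log2 fold changes ran from 0.50 (mcm8.L) to 1.20 (cdc6.S). The exception, mcm4.S, stood at 33.7 and 44.1 CPM in the proximal pools, 38.1 and 58.8 in the medial pools and 65.3 and 64.3 in the distal pools. Its pools did not overlap between distal and proximal, but the medial pools differed widely and it missed the threshold (log2 fold change 0.72, SE 0.22, adjusted p = 0.0541).

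cdc6.S (gene8757, chromosome 9_10S, 1427456 to 1435215, minus strand) encodes the loader that puts the Mcm ring on the origin. It was measured at 3.97 and 6.61 CPM in the proximal pools, 6.603 and 8.53 in the medial pools and 12.6 and 13.5 in the distal pools. Proximal pool 2 and medial pool 1 were nearly equal, the distal pools lay above all others, and the rise from proximal to distal was more than 2-fold (log2 fold change 1.20, SE 0.21, adjusted p = 0.00158). Its homeolog cdc6.L rose less and from a higher level, with 15.9 and 17.3 CPM in the proximal pools, 18.7 and 23.7 in the medial pools and 28.9 and 30.3 in the distal pools (log2 fold change 0.82, SE 0.13, adjusted p = 0.000511). mcm5.L, a subunit of the ring, stood at 63.4 and 78.7 CPM in the proximal pools, 81.2 and 105 in the medial pools and 121 and 134 in the distal pools. Every distal value exceeded every other value, and distal exceeded proximal (log2 fold change 0.83, SE 0.14, adjusted p = 0.0017).

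Both copies of mcm7 followed the same course. mcm7.L, measured at 103 and 139 CPM in the proximal pools, 127 and 174 in the medial pools and 204 and 209 in the distal pools, had a log2 fold change of 0.76 (SE 0.18, adjusted p = 0.0133), and mcm7.S one of 0.74 (SE 0.20, adjusted p = 0.035). Cdc45 and GINS complete the active helicase around the Mcm ring. cdc45.L stood at 15.7 and 15.5 CPM in the proximal pools, 17.5 and 21.2 in the medial pools and 24.8 and 23.4 in the distal pools (log2 fold change 0.63, SE 0.12, adjusted p = 0.00207), and its proximal pools lay below both medial and both distal pools. Of the GINS subunits, gins4.L changed most and most regularly, with 20.02 and 18.0 CPM in the proximal pools, 25.6 and 25.8 in the medial pools and 38.8 and 35.4 in the distal pools (log2 fold change 0.98, SE 0.10, adjusted p = 2.82e-05). gins1.S, gins2.L and gins3.L rose from proximal to distal by 0.55, 0.66 and 0.58 on the log2 scale. mcm10.L, which helps start the fork, rose by 0.69, and the origin recognition subunits orc4.L and orc6.L rose by 0.53 and 0.54.

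Pools of a segment were not equal for these genes. Medial pool 2 was above medial pool 1 for 13 of the 15 copies, with a summed level of 479.5 and 621 CPM in medial pools 1 and 2. The sums were 405 and 481 CPM in proximal and 741 and 752 CPM in distal. Over all genes tested, pool 2 was the higher of the medial pools for 47.5%. For the whole set of 52 members, pool 2 was higher for 41 in medial, 35 in proximal and 16 in distal. Over all genes tested, pool 2 was higher for 50.2% in proximal and 48.5% in distal. Whether this difference between pools bears on the medial values was not tested.

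**Figure D2:**
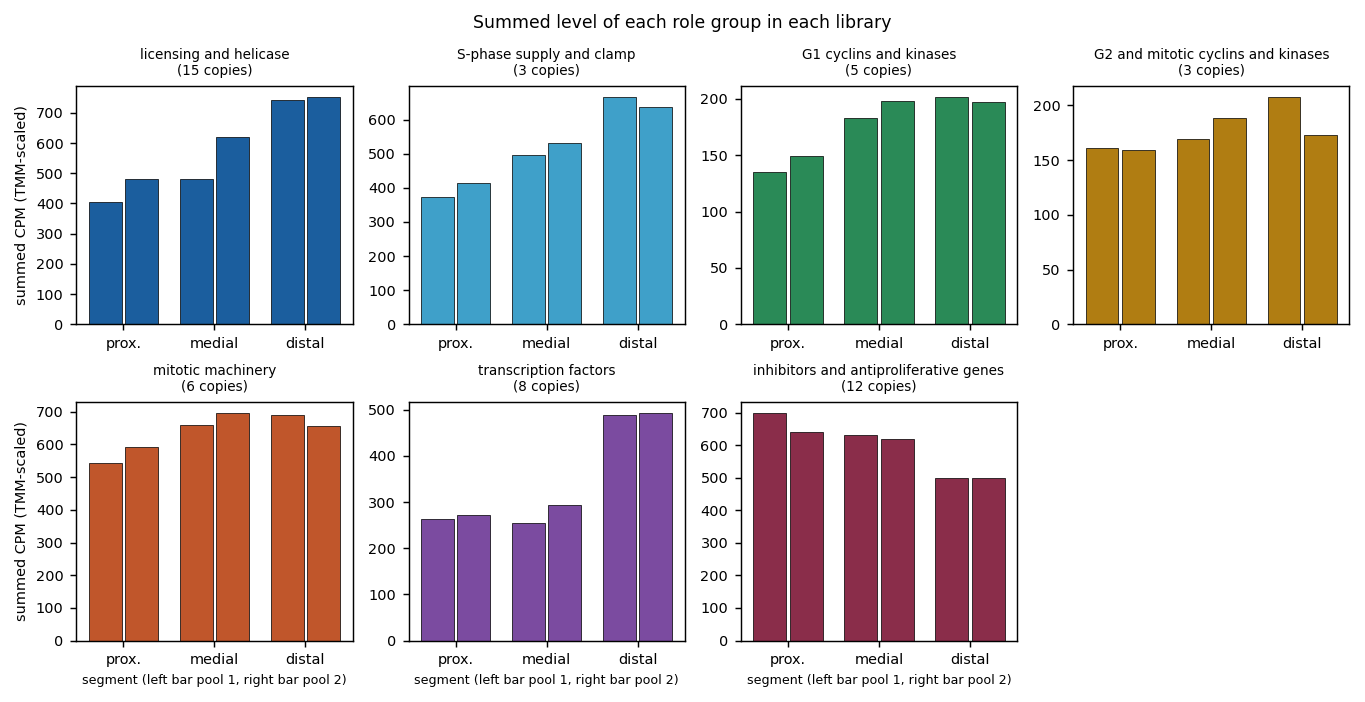
Summed level of the members of each role group in each library, in TMM-scaled CPM; the left bar of each pair is pool 1 and the right bar pool 2, and axes start at 0. The licensing and helicase sum goes from 405 and 481 CPM in the proximal pools to 741 and 752 CPM in the distal pools, and the sum of the inhibitor group from 698 and 640 CPM to 500.2 and 498 CPM.

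The sliding clamp and the supply of nucleotides changed with the helicase. pcna.L (gene6760, chromosome 3L, 115073813 to 115078823, plus strand) encodes the clamp that holds DNA polymerases on the template. It stood at 181 and 193 CPM in the proximal pools, 240.3 and 245 in the medial pools and 330.3 and 307 in the distal pools, in 3 separate steps with no overlap (log2 fold change 0.77, SE 0.10, adjusted p = 9.90e-05). pcna.S, at 95.6 and 112 CPM in the proximal pools, 141 and 149 in the medial pools and 178 and 175 in the distal pools, had nearly the same fold change (0.76, SE 0.10, adjusted p = 0.000148). rrm1.S, the large subunit of ribonucleotide reductase, which makes deoxynucleotides, was at 97.1 and 111 CPM in the proximal pools, 116 and 137 in the medial pools and 157 and 156 in the distal pools (log2 fold change 0.59, SE 0.11, adjusted p = 0.00158). For both pcna copies the medial pools also lay above the proximal pools, by 0.38 for pcna.L (SE 0.09, adjusted p = 0.0332) and 0.48 for pcna.S (SE 0.10, adjusted p = 0.0113) on the log2 scale. The medial to proximal call of pcna.L was lost when any library but medial pool 1 was left out, with an adjusted p of up to 0.127, and that of pcna.S without proximal pool 1 (adjusted p = 0.0756).

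Among G1 cyclins and kinases the genes divided. cdk4.S, the kinase partner of D-type cyclins, was at 29.3 and 27.2 CPM in the proximal pools, 25.2 and 29.2 in the medial pools and 42.6 and 46.1 in the distal pools. Proximal and medial overlapped, distal lay above both, and distal exceeded proximal (log2 fold change 0.66, SE 0.11, adjusted p = 0.000663) and medial (log2 fold change 0.70, SE 0.10, adjusted p = 0.000486). cdk2.S rose steadily, with 23.3 and 28.2 CPM in the proximal pools, 29.1 and 36.1 in the medial pools and 44.1 and 44.6 in the distal pools (log2 fold change 0.76, SE 0.13, adjusted p = 0.000773). cdk2.L rose less, from 36.6 and 40.2 CPM in proximal to 55.1 and 49.3 in distal (log2 fold change 0.44, SE 0.11, adjusted p = 0.00873), and its call was lost without distal pool 1 (adjusted p = 0.119). cdc25a.L, a phosphatase that activates Cdk2, rose from proximal to distal by 0.49 (SE 0.13, adjusted p = 0.0155).

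ccnd2.S, cyclin D2 (gene4181, chromosome 3S, 9506525 to 9637646, plus strand), had its peak in the middle of the limb bud. It was measured at 31.3 and 36.7 CPM in the proximal pools, 69.6 and 64.0 in the medial pools and 36.2 and 34.9 in the distal pools. Both medial values were clearly above the other 4, which overlapped. The medial segment exceeded proximal (log2 fold change 0.96, SE 0.10, adjusted p = 0.000135) and distal was below medial (log2 fold change −0.91, SE 0.10, adjusted p = 6.48e-05), while distal and proximal were not called different (log2 fold change 0.05, SE 0.10, adjusted p = 0.745). These calls were kept in all 17 alternative settings tried.

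Genes of mitosis had smaller differences between the ends of the limb bud. The median distal to proximal log2 fold change was 0.31 over the 6 mitotic machinery copies and 0.37 over the 3 G2 and mitotic cyclin and kinase copies, against 0.69 over the 15 licensing and helicase copies; the difference between these groups was not tested. ccna2.L, the S and G2 phase cyclin A2, stood at 44.5 and 45.1 CPM in the proximal pools, 53.3 and 53.0 in the medial pools and 63.1 and 52.5 in the distal pools (log2 fold change 0.37, SE 0.10, adjusted p = 0.0187), with distal pool 2 just below both medial pools. aurkb.L, the kinase of the chromosomal passenger complex, stood at 82.0 and 77.4 CPM in the proximal pools, 82.1 and 88.2 in the medial pools and 114 and 95.9 in the distal pools (log2 fold change 0.40, SE 0.10, adjusted p = 0.0125). cdc20.L, which activates the anaphase-promoting complex, rose from 40.6 and 40.7 CPM to 54.8 and 48.6 CPM (log2 fold change 0.35, SE 0.09, adjusted p = 0.016). These 3 distal to proximal calls were lost without proximal pool 2 or without distal pool 1, and that of ccna2.L also without proximal pool 1; the highest adjusted p was 0.259 for ccna2.L, 0.195 for aurkb.L and 0.203 for cdc20.L.

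top2a.L, the topoisomerase that untangles sister chromatids, was at 374 and 404 CPM in the proximal pools, 435 and 468 in the medial pools and 477 and 464 in the distal pools. Proximal was lowest and the medial and distal pools overlapped, and the distal to proximal difference missed the threshold (log2 fold change 0.27, SE 0.10, adjusted p = 0.0614). cenpf.L, a kinetochore protein, was highest in medial, with 81.4 and 92.04 CPM in the proximal pools, 109 and 112 in the medial pools and 90.8 and 84.6 in the distal pools. Distal was below medial (log2 fold change −0.33, SE 0.09, adjusted p = 0.025), and distal and proximal overlapped. cenpe.L, a kinetochore motor, was likewise highest in medial, at 55.4 and 52.5 CPM against 39.3 and 42.4 in proximal (log2 fold change 0.40, SE 0.10, adjusted p = 0.0302) and 49.4 and 43.4 in distal. That call was lost in 4 of 6 fits with a library left out (without either proximal pool, medial pool 1 or distal pool 1), with an adjusted p of up to 0.147.

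cdc25b.L, a phosphatase that activates Cdk1 at entry into mitosis, was lowest in distal, at 30.1 and 24.2 CPM against 34.0 and 47.0 in medial and 34.3 and 36.6 in proximal. Distal was below medial (log2 fold change −0.57, SE 0.16, adjusted p = 0.031), a call lost without either proximal pool, medial pool 2 or distal pool 2 (adjusted p up to 0.175). plk4.S, the kinase of centriole duplication, and cenpt.L, of the inner kinetochore, rose from proximal to distal by 0.77 (SE 0.19) and 0.60 (SE 0.17).

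**Figure D3:**
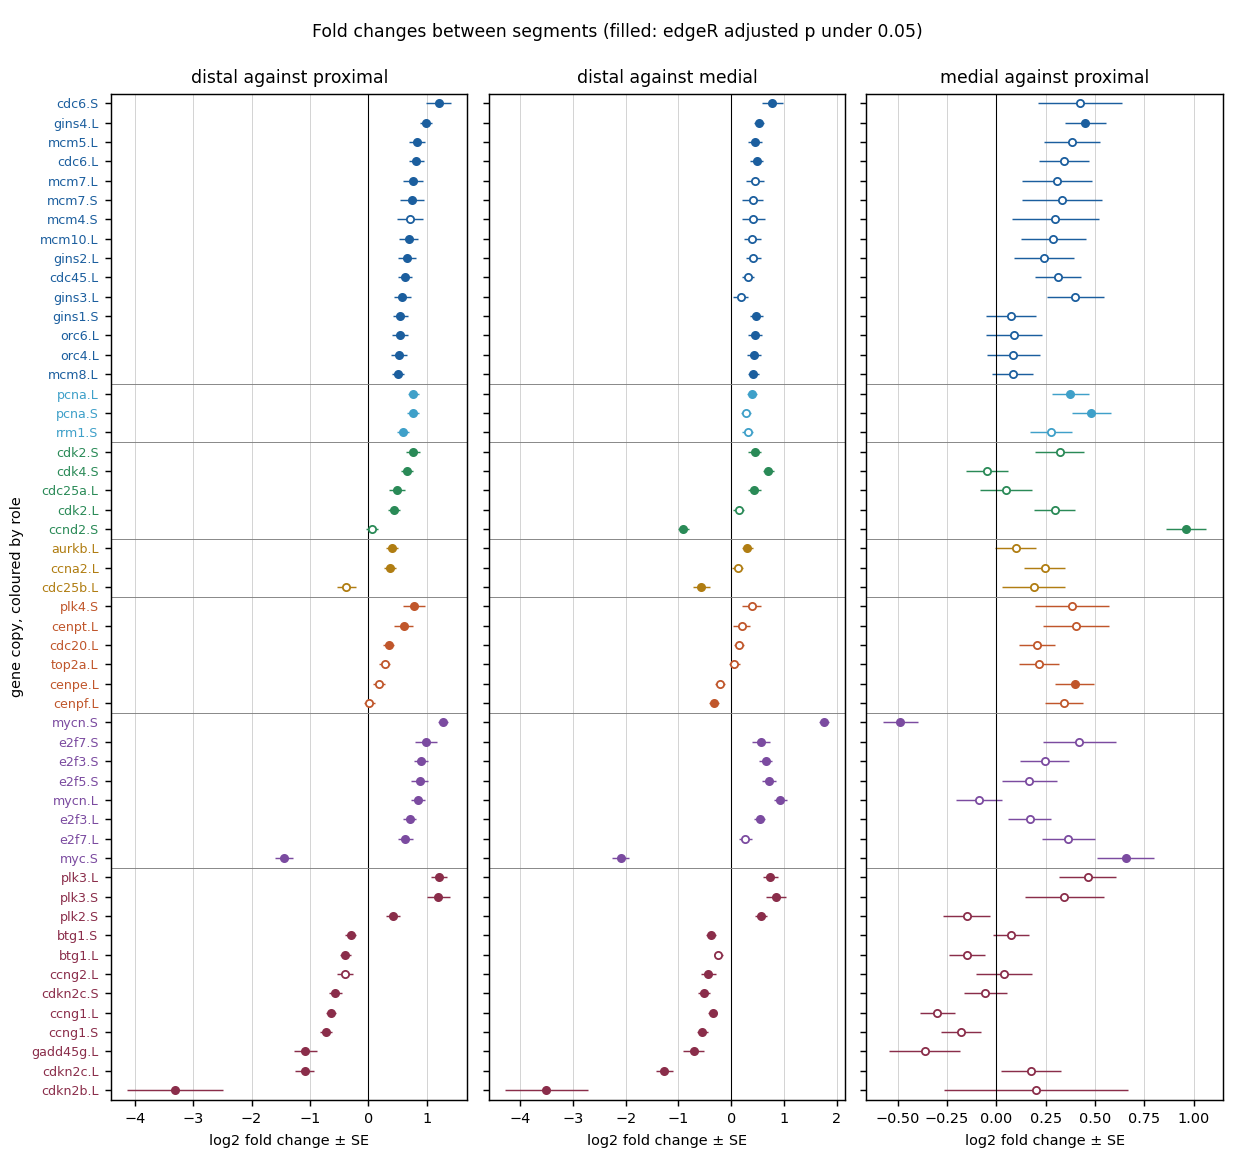
Log2 fold change ± SE of each member in the 3 comparisons, from the edgeR fit over all genes; filled points have an adjusted p under 0.05, and the horizontal scale differs between panels. Of the 52 members, 36 are called higher and 9 lower between distal and proximal, and 6 higher and 1 lower between medial and proximal. The value of cdkn2b.L rests on at most 22 counts per library.

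The transcription factors held the largest rise of all members and, apart from the sparsely counted cdkn2b.L, the largest fall. mycn.S, the S copy of N-myc, which drives growth and proliferation of progenitors (gene16924, chromosome 5S, 121931694 to 121939020, plus strand), was at 99.8 and 92.2 CPM in the proximal pools, 69.1 and 67.7 in the medial pools and 228 and 236 in the distal pools. Distal was more than 2-fold above proximal (log2 fold change 1.27, SE 0.09, adjusted p = 1.26e-06) and further above medial (log2 fold change 1.76, SE 0.09, adjusted p = 2.14e-07). Medial was below proximal (log2 fold change −0.49, SE 0.09, adjusted p = 0.00577). mycn.L changed in the same directions between distal and the rest but less, with 53.6 and 50.2 CPM in the proximal pools, 43.2 and 54.1 in the medial pools and 88.0 and 98.1 in the distal pools (log2 fold change 0.85, SE 0.12, adjusted p = 0.000221, and 0.93 for distal against medial).

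myc.S, the S copy of c-myc (gene39952, chromosome 6S, 118708290 to 118711828, plus strand), ran the other way. It was at 28.8 and 34.0 CPM in the proximal pools, 44.97 and 54.9 in the medial pools and 13.1 and 9.86 in the distal pools. No segment overlapped another: medial was highest, proximal intermediate and distal lowest (log2 fold change −1.44, SE 0.16, adjusted p = 8.18e-05 for distal against proximal, and log2 fold change −2.10, SE 0.16, adjusted p = 7.54e-06 for distal against medial). The medial to proximal rise (log2 fold change 0.65, SE 0.14, adjusted p = 0.0198) was lost without either proximal pool (adjusted p up to 0.137). The summed level of the red blood cell list had the same order of segments, with medial highest and distal lowest (values below), and its part in the myc.S values was not tested. The same order of segments was found for 5 other members, btg1.S, ccng2.L, cdc25b.L, cdkn2b.L and cdkn2c.L. With myc.S these made up 11.5% of the members, against 17.5% of all genes tested and 19.4% of all named genes with that order.

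Of 13 E2f copies in the RefSeq table, 5 are members and the other 8 were not analysed here. The 5 were called higher in distal than in proximal, where 39.3% of all named genes were higher. e2f3.L, an activator of S-phase genes, was at 30.3 and 36.5 CPM in the proximal pools, 36.3 and 39.5 in the medial pools and 57.3 and 52.6 in the distal pools (log2 fold change 0.70, SE 0.11, adjusted p = 0.000523). e2f3.S, at 16.1 and 18.6 CPM in the proximal pools, 18.6 and 22.9 in the medial pools and 32.7 and 32.7 in the distal pools, rose by 0.90 (SE 0.12, adjusted p = 0.000221). e2f5.S, a factor that acts with pocket proteins as a repressor, rose from 9.26 and 10.2 CPM in proximal to 18.9 and 17.1 in distal (log2 fold change 0.88, SE 0.14, adjusted p = 0.000646). The repressor e2f7, itself a gene induced in S phase in mammals, rose in both copies, by 0.99 for e2f7.S (SE 0.19) and 0.63 for e2f7.L (SE 0.14); the e2f7.L call was lost without distal pool 1 (adjusted p = 0.052). Exons of e2f5.S overlap another annotated gene, and fragments that overlap several genes were not counted, so its level is uncertain.

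**Figure D4:**
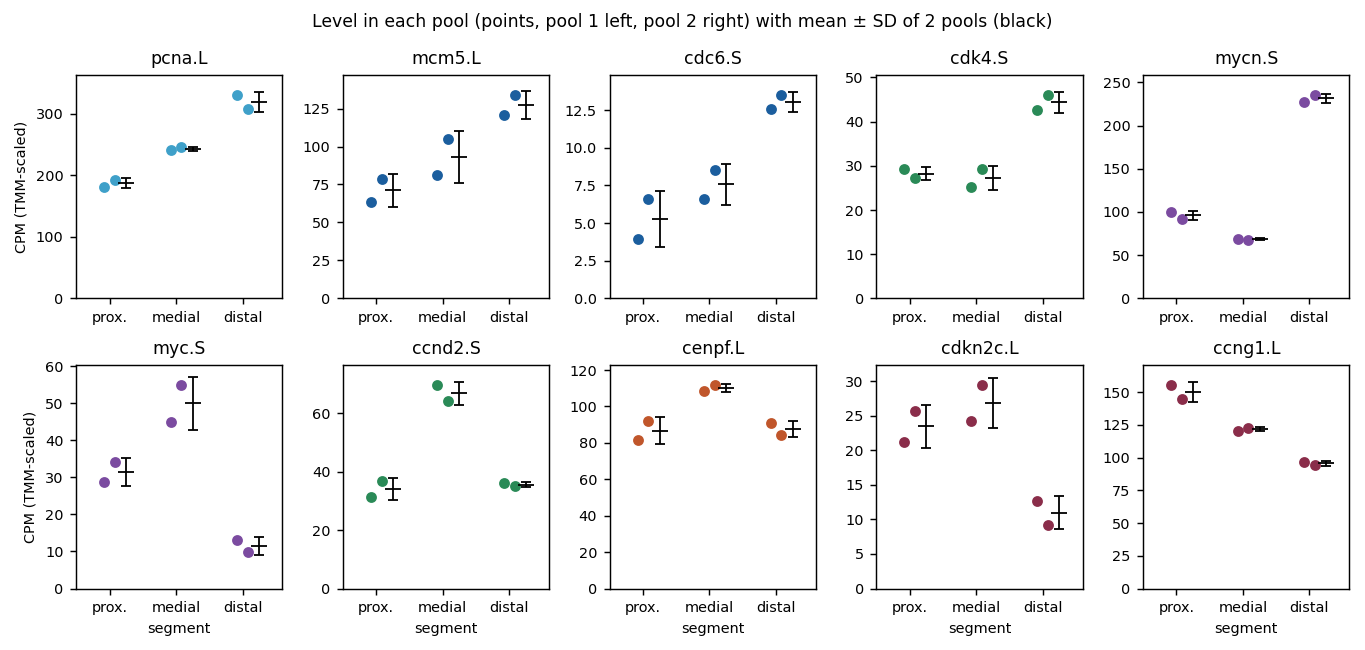
Level of 10 members in each pool, in TMM-scaled CPM, with the mean ± SD of 2 pools beside the points; each panel has its own axis, starting at 0. pcna.L rises in 3 steps, mycn.S and cdk4.S are highest in distal, and ccnd2.S and cenpf.L peak in medial. Outside distal, mycn.S is lower in medial than in proximal. myc.S and cdkn2c.L drop in distal. ccng1.L falls in steps from 155 and 145 CPM in the proximal pools to 97.0 and 94.4 CPM in the distal pools.

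Of 27 RefSeq copies in the group of inhibitors and antiproliferative genes, 12 are members. Of these 12, 8 were lower and 3 higher in distal than in proximal, where 49% of all named genes were lower and 39.3% higher, and the 3 higher ones were the Polo-like kinases plk2.S, plk3.L and plk3.S, which respond to stress and are not Cdk inhibitors. cdkn2c.L (gene15623, chromosome 4L, 85951528 to 85959607, plus strand), an Ink4 inhibitor of Cdk4 and Cdk6, was at 21.3 and 25.7 CPM in the proximal pools, 24.2 and 29.4 in the medial pools and 12.7 and 9.25 in the distal pools. Proximal and medial overlapped and distal lay well below both (log2 fold change −1.09, SE 0.17, adjusted p = 0.000744, and −1.27 for distal against medial). cdkn2c.S fell less, from 26.2 and 30.4 CPM in proximal to 19.6 and 18.8 in distal (log2 fold change −0.57, SE 0.11, adjusted p = 0.00287), a call lost without proximal pool 2 (adjusted p = 0.0512). cdkn2b.L, another Ink4 gene, was near the detection floor, with 5 and 21 counts in the proximal pools, 13 and 22 in the medial pools and 2 and 0 in the distal pools. It was called lower in distal than in proximal (adjusted p = 0.0103) and medial, the call against proximal was lost without proximal pool 2 or distal pool 2 (adjusted p up to 0.12) and that against medial without distal pool 2 (adjusted p = 0.0504), and no fold is given at so few counts.

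ccng1, cyclin G1, a target of p53 in mammals, fell in both copies. ccng1.L was at 155 and 145 CPM in the proximal pools, 121 and 122.8 in the medial pools and 97.0 and 94.4 in the distal pools, in 3 separate steps (log2 fold change −0.65, SE 0.09, adjusted p = 0.000205), and ccng1.S fell by 0.73 (SE 0.10, adjusted p = 0.000301). Exons of ccng1.S overlap another annotated gene, so its level is uncertain. ccng2.L, cyclin G2, which is linked to cell cycle arrest, was at 78.1 and 58.7 CPM in the proximal pools, 76.6 and 62.6 in the medial pools and 50.3 and 52.5 in the distal pools, below medial in distal (log2 fold change −0.44, SE 0.14, adjusted p = 0.0489) but not called against proximal (adjusted p = 0.0628). The call against medial was lost without medial pool 1 or either distal pool (adjusted p up to 0.249). gadd45g.L, a growth arrest and DNA damage gene, fell from 9.54 and 7.53 CPM in proximal through 6.90 and 6.06 in medial to 4.34 and 3.44 in distal (log2 fold change −1.08, SE 0.19, adjusted p = 0.00141). The antiproliferative gene btg1 had the smallest called falls, with log2 fold change −0.39, SE 0.09, adjusted p = 0.00639 for btg1.L and log2 fold change −0.31, SE 0.09, adjusted p = 0.0288 for btg1.S, and both calls were lost without either distal pool, that of btg1.S also without proximal pool 1 (adjusted p up to 0.0964 for btg1.L and 0.171 for btg1.S).

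plk3.L and plk3.S rose to nearly the same degree from low levels. plk3.L was at 6.80 and 5.88 CPM in the proximal pools, 8.51 and 8.64 in the medial pools and 15.1 and 13.6 in the distal pools (log2 fold change 1.21, SE 0.14, adjusted p = 7.28e-05), and plk3.S at 3.59 and 4.87 CPM in the proximal pools, 5.43 and 5.77 in the medial pools and 8.76 and 11.7 in the distal pools (log2 fold change 1.20, SE 0.20, adjusted p = 0.000808). plk2.S was highest in distal, at 18.0 and 16.3 CPM against 11.2 and 11.9 in medial (log2 fold change 0.57, SE 0.12, adjusted p = 0.00423).

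More members were called across the outer boundary, between medial and distal, than across the inner one. The same held for all genes tested, with 6753 called across the outer and 2053 across the inner boundary. Between distal and medial, 22 members (42.3%) were called higher and 12 (23.1%) lower. Of all genes tested 12.1% were higher and 12.9% lower there, and of all named genes 35.6% and 41.1%. Library totals in place of TMM factors moved the median log2 fold change of all genes from 0.0090 to 0.13. The split of member calls was then 27 higher and 8 lower. Of all 27007 genes tested, 5280 were then called higher and 2730 lower, against 3267 and 3486 with TMM factors. In the licensing and helicase group 8 of 15 copies were called, each higher in distal, and of 8 transcription factor copies 6 were higher, 1 was lower and 1 was not called. Of the 12 lower members, 8 belonged to the inhibitor group (the others were ccnd2.S, cdc25b.L, cenpf.L and myc.S). Fewer members were called higher without either distal pool or without medial pool 1, and fewer lower without either distal pool. Of all genes tested, fewer were also called higher and lower without either distal pool. Without medial pool 1, more of all genes tested were called higher. The median log2 fold change of the members was 0.39 across the outer and 0.24 across the inner boundary. Without medial pool 1 these medians were 0.22 and 0.37, so which boundary held the larger median difference rests on that library.

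At the inner boundary, with medial set against proximal, 6 members (11.5%) were called higher and 1 (1.92%) lower. Of all genes tested 2.73% were higher and 4.88% lower, and of all named genes 9.82% and 16.7%. With library totals in place of TMM factors the split was 4 higher and 2 lower. Of all genes tested, 605 were then called higher and 1480 lower, against 736 and 1317 with TMM factors. The 6 were ccnd2.S, myc.S, pcna.S, gins4.L, cenpe.L and pcna.L, and the lower one was mycn.S. With no adjustment, 22 members had a p-value under 0.05, 20 of them higher in medial. The share of all genes at that threshold was not counted, so these numbers have no background to be set beside. With adjustment, fewer members were called higher without either proximal pool and more without medial pool 1, as was the case for all genes tested. Both distal comparisons share the distal pools, and both proximal comparisons the proximal pools, so the comparisons are not independent of each other.

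For the 11 genes with both copies among the members, L and S had the same sign in both comparisons with distal, and no pair was called in opposite directions in any comparison. Both copies of such a gene had to be in the authors' deposited table to be members. Between medial and proximal the signs of L and S differed for btg1 (−0.15 and 0.07) and cdkn2c (0.17 and −0.06), none of them called. The share of agreeing pairs among all named genes was not counted. Per length, that is with CPM divided by the exon length in the count table, the ratio of L to S was steady for some genes and not for others. The ratio for mcm7 stayed between 2.58 and 2.76 over the 6 libraries, and that for pcna between 1.56 and 1.79. For mycn the L to S ratio was 0.797 and 0.809 in proximal, 0.930 and 1.19 in medial and 0.574 and 0.619 in distal. The S copy had the higher level per length in every library but medial pool 2, and the ratio was lowest in the distal pools. For cdkn2c it was 0.893 and 0.955 in medial and 0.613 and 0.465 in distal. For cdc6, cdk2 and e2f7 both distal ratios were below all 4 others. The difference between copies was not tested. L and S copies are similar in sequence and fragments that map to more than 1 locus were not counted, so levels of single copies carry that uncertainty.

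**Figure D5:**
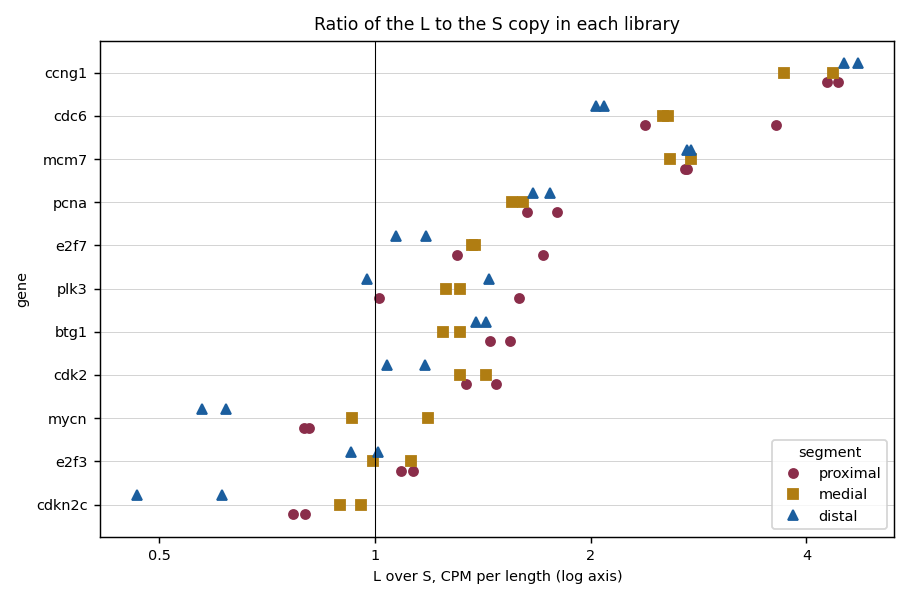
Ratio of the L to the S copy, in CPM per length on a log axis, in each of the 6 libraries for the 11 genes with both copies among the members; symbols mark the segment. mcm7 and pcna keep a narrow range across segments, whereas the distal ratios of mycn (0.574 and 0.619) and cdkn2c (0.613 and 0.465) lie below those of the other segments.

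On the FPKM scale (the CPM divided by exon length in kilobases), pcna.L was the most abundant member, at 170.4 ± 7.25 FPKM in proximal and 290.1 ± 15.05 in distal, followed by pcna.S at 99.9 ± 11 and 169.9 ± 2.47. The antiproliferative btg1.L came next over the 6 libraries, at 112 ± 5.33 FPKM in proximal and 85.0 ± 1.69 in distal. mycn.S stood at 88.5 ± 2.08 FPKM in distal, and myc.S at 21.3 ± 2.99 in medial and 4.89 ± 0.987 in distal. The lowest member was cdkn2b.L, preceded by plk4.S and plk3.S, at 1.79 ± 0.0624 and 2.22 ± 0.448 FPKM in distal.

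Most other named genes of replication and mitosis, from a list of 155 symbols outside the name pattern, were also higher in distal. The deposited table named 63 of these symbols, as 76 copies, all tested, with the same limit on names. Between distal and proximal, 69 copies were higher and 2 lower, with a median log2 fold change of 0.56. Of all named genes, 39.3% were higher and 49% lower there, and of all genes tested 13.6% and 15.9%. Of 52 copies of replication and repair genes 49 were higher, with a median of 0.64, and of 19 copies of mitosis genes 17 were higher and 1 lower, with a median of 0.45. The names covered 43 of 58 symbols listed for replication and repair but only 15 of 79 listed for mitosis. The other symbols were not analysed here. Without distal pool 1, fewer copies in all were called higher, as were fewer of all genes tested. The largest rises were cdca7.S (log2 fold change 1.12, SE 0.25, adjusted p = 0.0231), a Myc and E2f target in mammals, exo1.S (log2 fold change 1.08, SE 0.17, adjusted p = 0.000576), a repair exonuclease, and pold1.L (log2 fold change 0.99, SE 0.11, adjusted p = 5.70e-05), the catalytic subunit of polymerase delta. The 2 that fell were mybl1.L (log2 fold change −1.31, SE 0.26, adjusted p = 0.0028), a Myb factor, and smc3.S (log2 fold change −0.33, SE 0.09, adjusted p = 0.0141), a cohesin subunit.

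Across the outer boundary, 43 copies of that list were higher and 4 lower in distal, the lower ones being atad2.S, mastl.L, smc3.S and tfdp2.S. Of all named genes, 35.6% were higher and 41.1% lower there, and of all genes tested 12.1% and 12.9%. Across the inner boundary 1 copy was called, brca2.L, a repair gene that was higher in medial (log2 fold change 0.55, SE 0.12, adjusted p = 0.0161). The outer count of higher copies was smaller without distal pool 1, distal pool 2 or medial pool 1. Of all genes tested, fewer were called higher there without either distal pool, but more without medial pool 1. The inner count was larger without medial pool 1, as was that of all genes tested. With no adjustment, 21 copies had a p-value under 0.05 at the inner boundary, 20 of them higher in medial. Here too, the share of all genes at that threshold was not counted.

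Markers of other cell types also changed along the limb bud. Of all named genes, 49% were lower and 39.3% higher in distal than in proximal, and 41.1% lower in distal than in medial. Besides globins, the names covered 5 of 6 listed red blood cell symbols and 9 of 10 for cartilage. They covered 7 of 13 muscle, 5 of 9 endothelial, 3 of 7 nerve and Schwann cell and 2 of 7 leukocyte symbols. For epidermis they covered 4 of 10 and for limb mesenchyme 6 of 8. All 23 named red blood cell gene IDs were lower in distal than in both other segments, and their summed level was 33038 and 45355 CPM in proximal, 60186 and 70025 in medial and 2730.0 and 1364 in distal. With the globin genes taken out before scaling, 36 members were called higher and 9 lower between distal and proximal, 21 and 12 between distal and medial, and 7 and 1 between medial and proximal. Of the 27033 genes tested in that fit, 3675 were higher and 4290 lower, 3122 and 3612, and 772 and 1265, in the same order of comparisons. Of 15 cartilage copies 14 were lower in distal than in proximal, with summed levels of 2285 and 2629, 1789.7 and 1923 and 1245.6 and 1253 CPM in proximal, medial and distal pools. Of 11 muscle copies 10 were lower (sums of 30.3 and 34.8 CPM in proximal and 6.13 and 3.85 in distal), as were all 8 endothelial, all 4 nerve and Schwann cell and both leukocyte copies. Of 5 epidermal copies 3 (itln1.S, krt70.S and otogl2.L) were higher in distal than in proximal. The others, tp63.L and tp63.S, were not called (log2 fold change 0.32 and 0.45, adjusted p = 0.461 and 0.176). The epidermal sums were 147 and 133 CPM in proximal, 165 and 91.7 in medial and 306 and 333 in distal. Of these sums otogl2.L held 69.1 and 60.3, 88.9 and 47.4, and 186 and 209 CPM. Of 12 copies of limb mesenchyme genes 2 (msx1.L and msx2.S, which mark distal limb mesenchyme in other vertebrates) were higher and 7 lower in distal than in proximal. The 7 were both copies of pdgfra, prrx1 and twist1, and prrx2.L. Their homeologs msx1.S and msx2.L were not called (log2 fold change 0.20 and 0.13, adjusted p = 0.224 and 0.425), and neither was prrx2.S. The part of these differences in cell make-up in the values of the cell cycle genes was not tested.

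The authors' deposited table lists 45 members when distal is set against proximal, 29 when it is set against medial, and 6 between the medial and proximal segments. Of these, 43, 28 and 6 were also called here with the same sign, and 2, 6 and 1 members were called here only (cdkn2b.L and plk2.S for distal against proximal, gins4.L for medial against proximal). mcm4.S and top2a.L, not called here between distal and proximal, are called in the authors' deposited table.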

How the data were processed

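RNA was sequenced from 2 pools of 30 hind limbs for each of 3 limb bud segments. The authors trimmed reads with Trimmomatic 0.39, aligned them with HISAT2 2.2.1 and tested genes with DESeq2 1.30.1, per the submitters' processing notes; the genome build is not given in the sources used here. The deposited counts are raw fragments per gene from featureCounts 2.0.1, run with its paired-end option and otherwise default options, per the file headers, so strand was not used and fragments matching several loci or genes were not counted. The authors' deposited table of significant genes gives log2 fold changes and p-values per comparison, and is the only source of gene names (6943 IDs).

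From the counts, genes were kept with edgeR's filterByExpr (minimum count 10, minimum total 15), scaled with TMM and fitted with edgeR 4.0.16 (R 4.3.3) by the robust quasi-likelihood test, with segment as the only factor over all 6 libraries (3 residual degrees of freedom). P-values were adjusted by Benjamini-Hochberg over 27007 genes, and an adjusted p under 0.05 counted as a call. Standard errors were obtained from the F statistic, as the size of the log2 fold change over the root of F. The script was tested on simulated counts. The members, the gene lists, their roles and the tests were chosen with earlier results of these data known. Full values were given for the canonical genes of each role and, per comparison, the 5 largest rises and falls among called members with the same direction in both pools and at least 1 CPM. Of the wider list, up to 3 rises and 3 falls were named by the same rule. Beyond this rule, mcm4.S, mcm7, cenpf.L, plk2.S, cdc25a.L, plk4.S, cenpt.L, brca2.L and the other members of small counts were named after their values were seen. Alternatives were other scalings, filters on low counts, DESeq2 1.42.0, limma-voom (limma 3.58.1), no robust estimation, only the 4 libraries compared, a replicate block, globin genes taken out and each library left out in turn.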

Additional observations from a re-analysis of the deposited data

How the results depend on the processing

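With each library left out in turn, the number of members called higher ranged from 19 to 37 for distal against proximal, from 6 to 29 for distal against medial and from 2 to 16 for medial against proximal. The number called lower ranged from 6 to 11, from 4 to 12 and from 1 to 1. For the wider list, higher calls ranged from 31 to 71, from 9 to 51 and from 0 to 10, and lower calls from 0 to 3, from 1 to 4 and from 0 to 0. Such fits leave 1 library in a segment, which is assumed to vary like the others. The numbers called higher and lower over all genes tested varied between these fits too. Whether the calls of the members varied more than those of all genes was not tested. Removing distal pool 1 cost the most member calls in both comparisons with distal, and the most calls over all genes tested. Among the calls of genes chosen by the naming rule, 23 of 32 for distal against proximal, 9 of 27 for distal against medial and 2 of 7 for medial against proximal (ccnd2.S and mycn.S) were kept with any library left out, and 30, 21 and 4 were kept in all 11 other settings; calls of other members named in the text were not followed singly. None of the calls that were followed changed sign in the alternative settings. Differences that were not called are not covered by this statement, and those near 0 could change sign. Scaling by library totals gave 2 lower members for medial against proximal and 2 lower copies of the wider list for distal against medial. Of all genes tested, 1480 and 2730 were then lower in these comparisons. With no filter on low counts, medial against proximal had 11 higher members and 7 higher and 1 lower copies of the wider list. Of the 40210 genes tested in that fit, 1178 were higher and 1880 lower. With globin genes taken out the wider list had 2 higher copies for medial against proximal, where 772 of all genes tested were higher. DESeq2 called 25 copies of that list higher for distal against medial, and 2115 of all genes tested, against 3267 in the main fit. The library titles carry the tag Black for each pool 1 and Red for each pool 2, but no label says that equal tags share limbs. Pools of the same number did not deviate together in every comparison (correlations of 0.03, 0.05 and 0.2), so pairing was not established. With a replicate block, medial against proximal had 8 higher and 2 lower members and 10 higher copies of the wider list. Distal against proximal had 38 higher and 10 lower members, and distal against medial had 30 higher and 11 lower. Of all 27007 genes tested, the block gave 982 higher and 1647 lower, 4126 and 4686, and 3920 and 3944, in the same order of comparisons. Under the block mcm4.S, top2a.L and ccng2.L were called between distal and proximal (adjusted p = 0.00267, 0.0375 and 0.0135), and cdc25b.L was not called between distal and medial (adjusted p = 0.0556). With 2 pools per segment and 10815041 fragments in the shallowest library, small differences and genes near the floor, such as cdkn2b.L, could not be resolved.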
